A study of Mus musculus with 5 samples.

Results

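Methylation was examined at 35 genes of meiosis and of the piRNA pathway, a set known for being kept off in somatic cells by methylation of their promoters. Each gene was read in 1 window, at whichever of its ends had more cytosines listed, from 1000 bp outside the gene to 500 bp inside it. The 35 genes are part of 21883 protein coding genes treated in the same way. A window was used over all libraries where 3 or more cytosines were listed in all 5 of them, which held for 30 of the 35 genes and for 14633 of all gene ends. The level of a window is the mean percent methylation over those cytosines.

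The assay was reduced representation bisulfite sequencing, in which an enzyme digest enriches for CpG-rich fragments and bisulfite separates methylated from unmethylated cytosines. There were 5 mouse samples, all of the C57BL/6x129S6 background. A set of 4 teratomas, tumours of differentiated tissues that arise from pluripotent cells, came from embryonic stem cells placed into tetraploid embryos, and each carries the name of the stem cell culture, P5_2iL, P5_2iL_F, P5_a2iL_1 or P5_LCDM_1. Muscle was the control tissue. The labels do not spell out the culture names and give neither the age of the animals nor how many were used. Every group holds 1 library, so each difference below compares libraries, no test between conditions is possible and no p-value is given.

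Methylation at these genes is laid down around the time the embryo implants, mainly by the enzyme DNMT3B, at promoters that are unusually rich in CpGs for methylated DNA. Before that, and together with it, a variant Polycomb complex holding MGA, MAX and E2F6 keeps the same genes off by binding E-box and E2F motifs. Primordial germ cells lose the methylation, and the genes then serve the pairing of chromosomes in meiosis and the small RNAs that hold transposons down. Expression was not measured, so whether the genes were silent could not be checked here.

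The libraries listed 4892985 cytosines in P5_2iL, 5323090 in P5_2iL_F, 4446459 in P5_a2iL_1, 4601508 in P5_LCDM_1 and 4017125 in muscle. The deposited values carry no read counts, so the depth behind a level is unknown and no interval can be given. Precision was judged from CpGs listed on both strands, by the gap between the mean levels of the strands within 1 library. Over the germline windows with 3 or more such CpGs this gap had a median of 3.51 percentage points in P5_2iL, 3.34 in P5_2iL_F, 4.90 in P5_a2iL_1, 5.20 in P5_LCDM_1 and 5.07 in muscle. It passed 25 points at Tdrd5 in P5_2iL_F (26.6) and at Sycp2 in muscle (28.6). Of 10 skeletal muscle marker genes, 7 in P5_2iL, 7 in P5_2iL_F, 5 in P5_a2iL_1 and 3 in P5_LCDM_1 were 25 points or more above muscle and none was as far below it. Of the measured blood marker genes, 4 of 5 in P5_2iL and 4 of 5 in P5_2iL_F were as far below muscle. So were 2 of 4 in P5_a2iL_1 and 3 of 5 in P5_LCDM_1. The blood gene Spi1 went the other way, 55.3 points above muscle in P5_2iL and 36.5 in P5_2iL_F. Over all gene ends, 3.17% to 4.77% were as far above muscle and 0.852% to 1.32% as far below. The part of such differences in tissue in the results below was not tested. Tissues are mixtures of cells, and a level between 0 and 100% cannot tell a mixture of methylated and unmethylated cells from partial methylation within cells.

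The promoters of 4 of the genes show the range of states, from methylated in every library to low at the start of the gene. They run from 250 bases before to 50 bases after the annotated start, 5′ to 3′, from RefSeq on GRCm38.p6, the same build as mm10. Capitals mark the CpGs with a cytosine listed in all 5 libraries, and the other CpGs are in lower case. Slc25a31, a mitochondrial ADP/ATP carrier of sperm, lies at chr3:40708621-40708920 on the plus strand, and all 22 of its CpGs were listed. Stk31, a germ cell protein kinase with a Tudor domain, lies at chr6:49395354-49395653 on the plus strand, with 16 of 28 CpGs listed. Hormad2, a protein of the unsynapsed chromosome axis in meiosis, lies at chr11:4441033-4441332 on the minus strand, with 11 of 16 listed. Smc1b, the meiotic cohesin subunit SMC1 beta, lies at chr15:85131908-85132207 on the minus strand, with 25 of 29 listed, and was chosen for display after its values were seen.
Slc25a31: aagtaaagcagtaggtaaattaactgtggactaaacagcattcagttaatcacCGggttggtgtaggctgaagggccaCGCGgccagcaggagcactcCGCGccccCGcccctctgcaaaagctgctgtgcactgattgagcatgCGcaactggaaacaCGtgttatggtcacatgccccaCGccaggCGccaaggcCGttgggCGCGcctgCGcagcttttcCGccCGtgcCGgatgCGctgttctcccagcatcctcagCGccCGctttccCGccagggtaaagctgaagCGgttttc
Stk31: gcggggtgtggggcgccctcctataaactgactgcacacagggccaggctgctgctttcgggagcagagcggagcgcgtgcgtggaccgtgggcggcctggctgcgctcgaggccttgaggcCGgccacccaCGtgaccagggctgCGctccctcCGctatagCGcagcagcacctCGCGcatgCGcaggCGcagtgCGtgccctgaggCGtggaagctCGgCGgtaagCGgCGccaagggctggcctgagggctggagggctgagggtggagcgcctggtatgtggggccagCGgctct
Hormad2: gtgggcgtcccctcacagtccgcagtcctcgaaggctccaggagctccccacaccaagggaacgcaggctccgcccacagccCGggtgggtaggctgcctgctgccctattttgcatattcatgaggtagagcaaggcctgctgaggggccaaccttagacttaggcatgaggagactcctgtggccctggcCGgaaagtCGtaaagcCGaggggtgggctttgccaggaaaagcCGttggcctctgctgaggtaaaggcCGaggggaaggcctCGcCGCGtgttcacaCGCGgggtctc
Smc1b: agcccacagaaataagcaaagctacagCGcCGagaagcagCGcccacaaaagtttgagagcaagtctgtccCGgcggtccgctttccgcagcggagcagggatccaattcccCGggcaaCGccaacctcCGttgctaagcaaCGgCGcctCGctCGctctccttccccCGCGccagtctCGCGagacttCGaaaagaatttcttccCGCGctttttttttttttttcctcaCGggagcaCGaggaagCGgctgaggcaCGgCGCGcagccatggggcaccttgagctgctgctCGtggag

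Over the capital CpGs of Slc25a31 the mean level was 98.2% in P5_2iL, 97.6% in P5_2iL_F, 95.7% in P5_a2iL_1, 94.4% in P5_LCDM_1 and 90.6% in muscle. At Stk31 these levels were 100% in P5_2iL, 100% in P5_2iL_F, 87.5% in P5_a2iL_1, 56.2% in P5_LCDM_1 and 50% in muscle. At Hormad2 they were 83.3%, 74.0%, 79.5% and 76.9% in the same order of teratomas, against 40.3% in muscle. Slc25a31 was thus highly methylated in every library, Stk31 was high in 3 teratomas and near 50% in P5_LCDM_1 and muscle, and Hormad2 was higher in each of the 4 teratomas than in muscle. The Smc1b promoter stood at the other end, at 13.2% in P5_2iL, 20.1% in P5_2iL_F, 13.2% in P5_a2iL_1, 12.9% in P5_LCDM_1 and 1.39% in muscle.

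Windows were sorted into classes by the mean of their 5 library levels, with 80% or more as high, 20% to under 80% as intermediate and under 20% as low. Of the 30 germline windows, 18 (60%) were high, 11 (36.7%) intermediate and 1 (3.33%) low. Over all 14633 gene ends, 8.41% were high, 11.7% intermediate and 79.9% low. The median germline window was at 88.2% in P5_2iL, 86.6% in P5_2iL_F, 84.4% in P5_a2iL_1, 74.3% in P5_LCDM_1 and 74.4% in muscle, where the median gene end was at 1.13%, 1.19%, 1.47%, 1.48% and 1.02%. The germline genes therefore sat far above most gene ends in every library, muscle included. Close to the upper bound, Mov10l1 averaged 80.4% and Stk31 81.7% inside the high class, and Hormad2 averaged 73.4% and Rnf17 73.4% outside it. Next to the lower bound, Mei1 averaged 22.6% inside the intermediate class, and Dmrt1, the next gene down, was well below it at 4.67%.

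By role, the genes of the meiotic chromosome axis, synapsis and recombination had 4 high and 4 intermediate windows of 8, and those of the piRNA pathway and germ granule 7 high and 6 intermediate of 13. Germ cell regulators had 3 high, 1 intermediate and 1 low of 5, and the 4 other germ cell genes were all high. A second list of 40 germline genes outside the 35 had 24 measured windows, of which 7 were high, 6 intermediate and 11 low. Genes that keep germline genes off, among them E2f6, Mga, Dnmt3b and Setdb1, had 0 high, 1 intermediate and 12 low windows of 13.

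**Figure D1:**
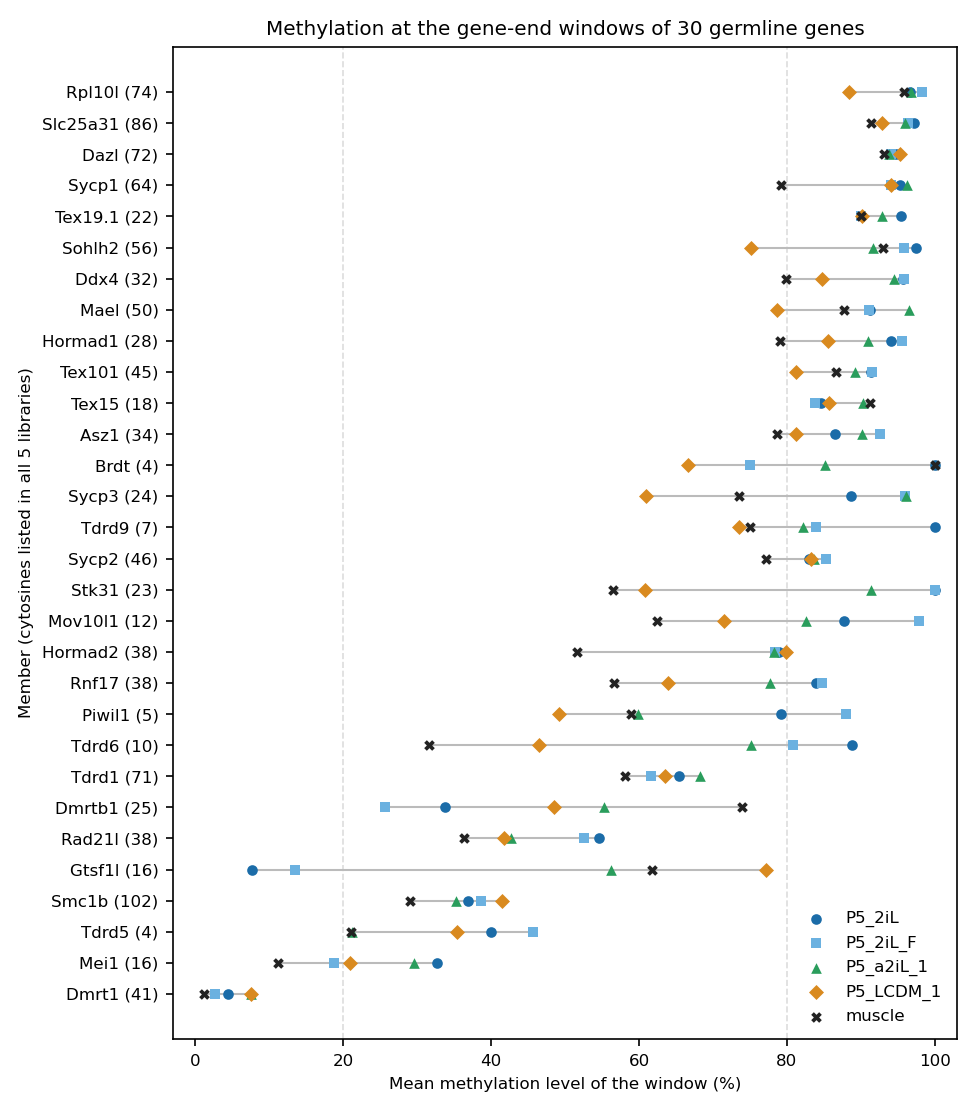
Mean methylation level (%) of 30 germline windows, 1 row per gene from the highest mean level down, with the cytosines listed in all 5 libraries in brackets and 1 point per library. Dashed lines are the class bounds of 20% and 80%. Rpl10l, Slc25a31 and Dazl stay at 88.4% or more in every library, while Tdrd6 and Gtsf1l spread from 31.6% to 88.7% and from 7.73% to 77.2%.

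Among the high genes, 4 stayed at 88.4% or more in all libraries, Tex19.1 over 22 cytosines and Dazl, Slc25a31 and Rpl10l over 72 or more each. Dazl, an RNA-binding protein needed for germ cell development, was at 94.8% in P5_2iL, 94.0% in P5_2iL_F, 93.8% in P5_a2iL_1, 95.2% in P5_LCDM_1 and 93.2% in muscle. Its 5 levels span 2.06 points, the narrowest range of any high gene and within the strand differences. Slc25a31 was at 97.2%, 96.4%, 96.0% and 92.9% in the 4 teratomas and 91.3% in muscle. Rpl10l, a retrogene copy of a ribosomal protein gene used in spermatocytes, was at 96.6%, 98.3%, 96.8% and 88.4%, against 95.8% in muscle. Rpl10l is a copy of another gene, so reads could in part be shared between copies.

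Synaptonemal complex genes, which build the structure that joins paired chromosomes, were mostly high. Sycp1, its transverse filament, was at 95.3% in P5_2iL, 94.1% in P5_2iL_F, 96.2% in P5_a2iL_1, 94.0% in P5_LCDM_1 and 79.3% in muscle over 64 cytosines. Sycp2, an axial element protein, stayed within 83.0% to 85.3% in the teratomas and was at 77.2% in muscle over 46 cytosines. Sycp1 was thus lowest in muscle, by 11.8 to 14.8 points over the cytosines shared with each teratoma. Its own strands in muscle were at 75.8% and 91.6%, a wider gap than these differences. Sycp2 also differed by less than the 28.6 points between its own strands in muscle. Sycp3, the axial partner of Sycp2, was at 88.7% in P5_2iL, 96.0% in P5_2iL_F, 96.1% in P5_a2iL_1, 61.0% in P5_LCDM_1 and 73.5% in muscle over 24 cytosines. Here P5_LCDM_1 was the lowest library, and the other 3 teratomas lay above muscle. Hormad1, the axis partner of Hormad2, was at 94.0%, 95.6%, 91.0% and 85.6% in the teratomas and 79.1% in muscle.

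Of the piRNA and germ granule genes in the high class, Ddx4, the RNA helicase known as vasa, was at 95.7% in P5_2iL, 95.8% in P5_2iL_F, 94.5% in P5_a2iL_1, 84.8% in P5_LCDM_1 and 79.9% in muscle over 32 cytosines. Mael, a factor of transposon silencing, was at 91.3%, 91.1%, 96.5% and 78.7% in the teratomas and 87.7% in muscle. Asz1, a germ granule protein on mitochondria, was at 86.5%, 92.7%, 90.1% and 81.3%, and 78.7% in muscle. The lowest library was muscle at Ddx4 and Asz1 and P5_LCDM_1 at Mael. Mov10l1, the helicase that feeds transcripts into piRNA production, was at 87.7%, 97.8%, 82.6% and 71.4%, and 62.5% in muscle, over only 12 cytosines, in a window that overlaps the neighbouring gene Mlc1. The Tudor protein Tdrd9 (7 cytosines) ranged from 73.5% in P5_LCDM_1 to 100% in P5_2iL, and was at 75.0% in muscle. The remaining high genes are Tex15, which acts in piRNA-directed methylation, Tex101, a germ cell surface protein, Tex19.1, a factor of transposon control, Sohlh2 and Brdt, a bromodomain protein of the testis. Their levels ranged from 66.7% at Brdt in P5_LCDM_1, over 4 cytosines, to 100% at Brdt in P5_2iL and in muscle. Sohlh2, a transcription factor of early germ cells, was at 75.1% in P5_LCDM_1, at 91.7% to 97.4% in the other teratomas and at 93.0% in muscle.

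Muscle was the lowest library at 10 of the 18 high genes, counting Tex19.1, where it tied with P5_2iL_F at 90%, P5_LCDM_1 at 7 and P5_2iL_F at 1. Pooled over 697 cytosines of high windows, 89.2% in P5_2iL, 90.8% in P5_2iL_F, 87.7% in P5_a2iL_1, 71.6% in P5_LCDM_1 and 72.0% in muscle were methylated above 80%. Most of the others lay from 20 to 80%, with 10.6%, 8.75%, 11.5% and 24.96% of cytosines in the teratomas and 24.7% in muscle. Cytosines under 20% made up 0.143%, 0.430%, 0.861% and 3.44% in the teratomas and 3.30% in muscle. The class was chosen by these same levels, so few cytosines under 20% are part of its definition. The mean level of all shared autosomal cytosines also differed between the libraries, at 49.5% in P5_2iL, 48.9% in P5_2iL_F, 46.5% in P5_a2iL_1, 44.4% in P5_LCDM_1 and 42.7% in muscle, and its part in these shares was not tested.

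**Figure D2:**
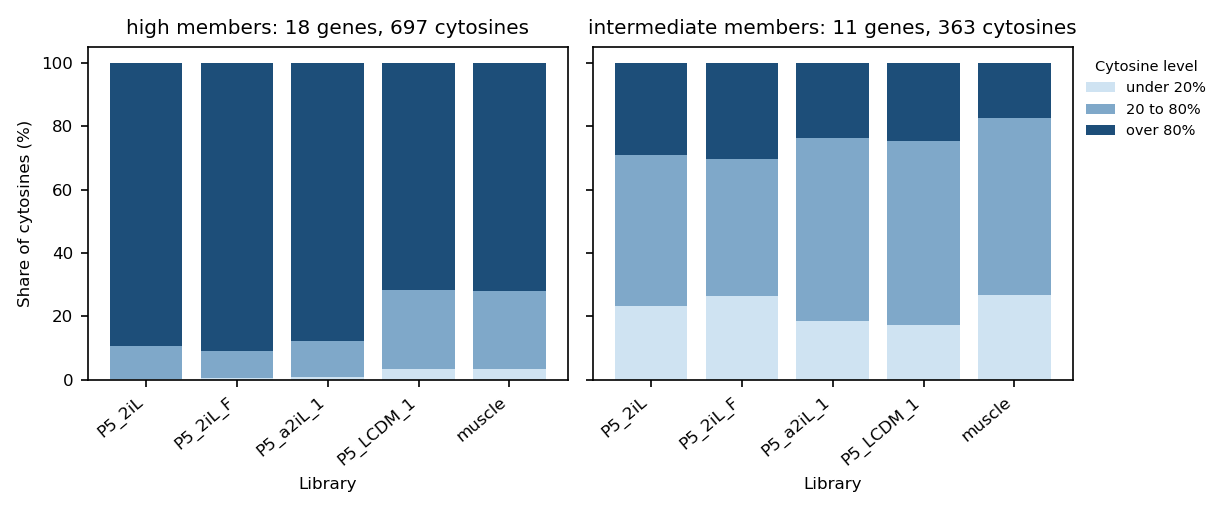
Share of cytosines (%) at under 20%, 20 to 80% and over 80% methylation in each library, pooled over the 18 high genes (left, 697 cytosines) and the 11 intermediate genes (right, 363 cytosines). In high windows the share over 80% is 87.7% to 90.8% in P5_2iL, P5_2iL_F and P5_a2iL_1 and about 72% in P5_LCDM_1 and muscle, while in intermediate windows all 3 levels are present in every library.

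Intermediate windows were not a uniform state. Pooled over their 363 cytosines, the share from 20 to 80% was 47.7% in P5_2iL, 43.3% in P5_2iL_F, 57.9% in P5_a2iL_1, 58.1% in P5_LCDM_1 and 55.9% in muscle. The share under 20% was 23.4%, 26.4%, 18.5% and 17.4% in the teratomas and 26.7% in muscle, and the share over 80% was 28.9%, 30.3%, 23.7% and 24.5%, against 17.4% in muscle. An intermediate mean thus came both from cytosines at middle levels and from mixtures of low and high ones. The median intermediate gene had 40%, 39.5%, 57.7% and 50% of its cytosines from 20 to 80% in the teratomas and 60% in muscle. Over all 1706 intermediate gene ends these medians were 32.9%, 37.0%, 50% and 52.7%, and 44.4% in muscle, with a median of 14 cytosines against 25 at the germline genes.

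The classes also differed in where their windows lie. Of the 18 high windows, 17 held an annotated start of their own gene in the promoter table, and 1 gene (Tex15) is not in it. Of the 11 intermediate windows, 3 held a start (Hormad2, Tdrd1 and Smc1b), 6 held none and Tdrd6 and Rnf17 are not in the table. Those without a start were Dmrtb1, Piwil1 and Gtsf1l, whose windows lie at the 3′ end, and Mei1, Tdrd5 and Rad21l, whose 5′ windows begin at a gene boundary away from the annotated start. The choice of the end with more cytosines thus put 3 intermediate windows at a 3′ end, and the gene boundary used put 3 others away from the start. With the window set at the annotated start, 24 of the 35 genes could be measured, and 18 were high, 5 intermediate and 1 low. Dmrtb1, a transcription factor of the entry into meiosis, was then at 93.7% in P5_2iL, 91.8% in P5_2iL_F, 91.2% in P5_a2iL_1, 72.4% in P5_LCDM_1 and 89.7% in muscle over 45 cytosines. Mei1, a factor of meiotic recombination, was at 90.4%, 80.4%, 69.6% and 76.9% there, against 80.2% in muscle. Stra8, the retinoic acid responsive gene of meiotic entry, which had no usable window at its gene end, was at 96.8%, 96.3%, 96.3% and 94.8%, and 95.3% in muscle, over 26 cytosines. The start of Tdrd5, a Tudor protein of the germ granule, went the other way and was low, at 8.31%, 11.7%, 7.39% and 9.27% in the teratomas and 2.53% in muscle over 39 cytosines.

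Thus 3 intermediate windows are known to hold a promoter in the annotation used. Tdrd1, a Tudor scaffold protein of the piRNA pathway, was at 65.4% in P5_2iL, 61.6% in P5_2iL_F, 68.2% in P5_a2iL_1, 63.5% in P5_LCDM_1 and 58.1% in muscle over 71 cytosines. Its first 200 bp inside the gene were at 53.4%, 48.6%, 61.3% and 53.0%, against 43.4% in muscle, between higher levels outside the gene (68.0% to 74.7% in the teratomas, 72.7% in muscle) and further inside (80.6% to 98.9%, and 84.7% in muscle). The window of Tdrd1 thus dipped at the start in every library. Smc1b, over 102 cytosines, was at 36.9%, 38.7%, 35.3% and 41.5% in the teratomas and 29.0% in muscle. It climbed along the window, at 10.5%, 17.2%, 10.4% and 12.8% outside the gene and 1.77% in muscle, then 44.1%, 44.2%, 44.5% and 53.5% in the first 200 bp and 30.1% in muscle, and finally 78.1%, 72.6%, 70.1% and 79.0% from 200 to 500 bp and 81.8% in muscle. Its middle mean is the average over a low and a high stretch, and the window also overlaps the neighbouring gene Ribc2.

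Hormad2, the third of them, was at 78.9% in P5_2iL, 78.4% in P5_2iL_F, 78.2% in P5_a2iL_1, 79.9% in P5_LCDM_1 and 51.6% in muscle over 38 cytosines. In muscle no Hormad2 cytosine exceeded 80%, 5 of 38 were under 20% and the median was 50%, while the medians in the teratomas were 80.9%, 84.5%, 83.3% and 82.6%. The teratomas agreed within 2 points of each other, and muscle was apart from them at most of the cytosines.

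Rnf17 and Tdrd6, Tudor genes of the germ granule whose strand is not in the promoter table, had windows at chr14:56401650-56403150 and chr17:43614334-43615834. Rnf17 was at 84.0% in P5_2iL, 84.7% in P5_2iL_F, 77.7% in P5_a2iL_1, 63.9% in P5_LCDM_1 and 56.6% in muscle over 38 cytosines. Tdrd6 was at 88.7%, 80.9%, 75.2% and 46.4% in the teratomas and 31.6% in muscle over 10 cytosines. Both were highest in P5_2iL or P5_2iL_F and lowest in muscle, with P5_LCDM_1 next to it, and they pass from high to middle levels between libraries. Rad21l, a meiotic cohesin subunit, was at 54.7%, 52.5%, 42.6% and 41.8%, and 36.3% in muscle, over 38 cytosines, with most of them at middle levels in each library. The remaining 5′ windows lie upstream of the annotated starts. Mei1 was at 32.6% in P5_2iL, 18.8% in P5_2iL_F, 29.5% in P5_a2iL_1, 21.0% in P5_LCDM_1 and 11.2% in muscle over 16 cytosines there. Tdrd5 was at 40%, 45.7%, 21.2% and 35.4% in the teratomas and 21.1% in muscle over 4 cytosines. Muscle was the lowest library at both.

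The 3′ windows of Gtsf1l and Dmrtb1 were lower in P5_2iL and P5_2iL_F than in muscle. Gtsf1l, related to the piRNA cofactor Gtsf1, has its window at chr2:163086031-163087531 and was at 7.73% in P5_2iL, 13.5% in P5_2iL_F, 56.2% in P5_a2iL_1, 77.2% in P5_LCDM_1 and 61.7% in muscle over 16 cytosines. In both P5_2iL and P5_2iL_F, 13 of the 16 cytosines were under 20%, and none was in the other 3 libraries. Dmrtb1 has its 3′ window at chr4:107675288-107676788 and was at 33.8%, 25.7%, 55.2% and 48.5% in the teratomas and 73.9% in muscle over 25 cytosines. Gtsf1l and Dmrtb1 are the only intermediate genes with their lowest level in P5_2iL or P5_2iL_F, and muscle was the lowest at 8 of the 11. Piwil1, the PIWI protein MIWI, was at 79.3%, 87.9%, 59.9% and 49.1% in the teratomas and 58.9% in muscle, over 5 cytosines at its 3′ end.

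Dmrt1 was the only low window. It encodes a transcription factor of the testis, and 41 cytosines 200 to 500 bp inside the gene were at 4.45% in P5_2iL, 2.70% in P5_2iL_F, 7.47% in P5_a2iL_1, 7.50% in P5_LCDM_1 and 1.22% in muscle. With the starts of Smc1b and Tdrd5, this window goes against the description of the 35 genes as methylated. Dmrt1 is not in the promoter table, however, so its window is not known to hold its start. Syce1, Tdrd12, Piwil2, Stra8 and Spo11 had fewer than 3 cytosines in all 5 libraries. Among the teratomas alone, Tdrd12, a piRNA pathway helicase, was at 91.3% to 96.9% over 18 cytosines shared by P5_2iL, P5_2iL_F and P5_LCDM_1. Spo11, which makes the DNA breaks of meiosis, was at 96.2% in P5_2iL, 89.2% in P5_2iL_F, 64.2% in P5_a2iL_1 and 83.8% in P5_LCDM_1 over 10 cytosines. Spo11 is not in the promoter table either, so the same limit holds for its window.

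**Figure D3:**
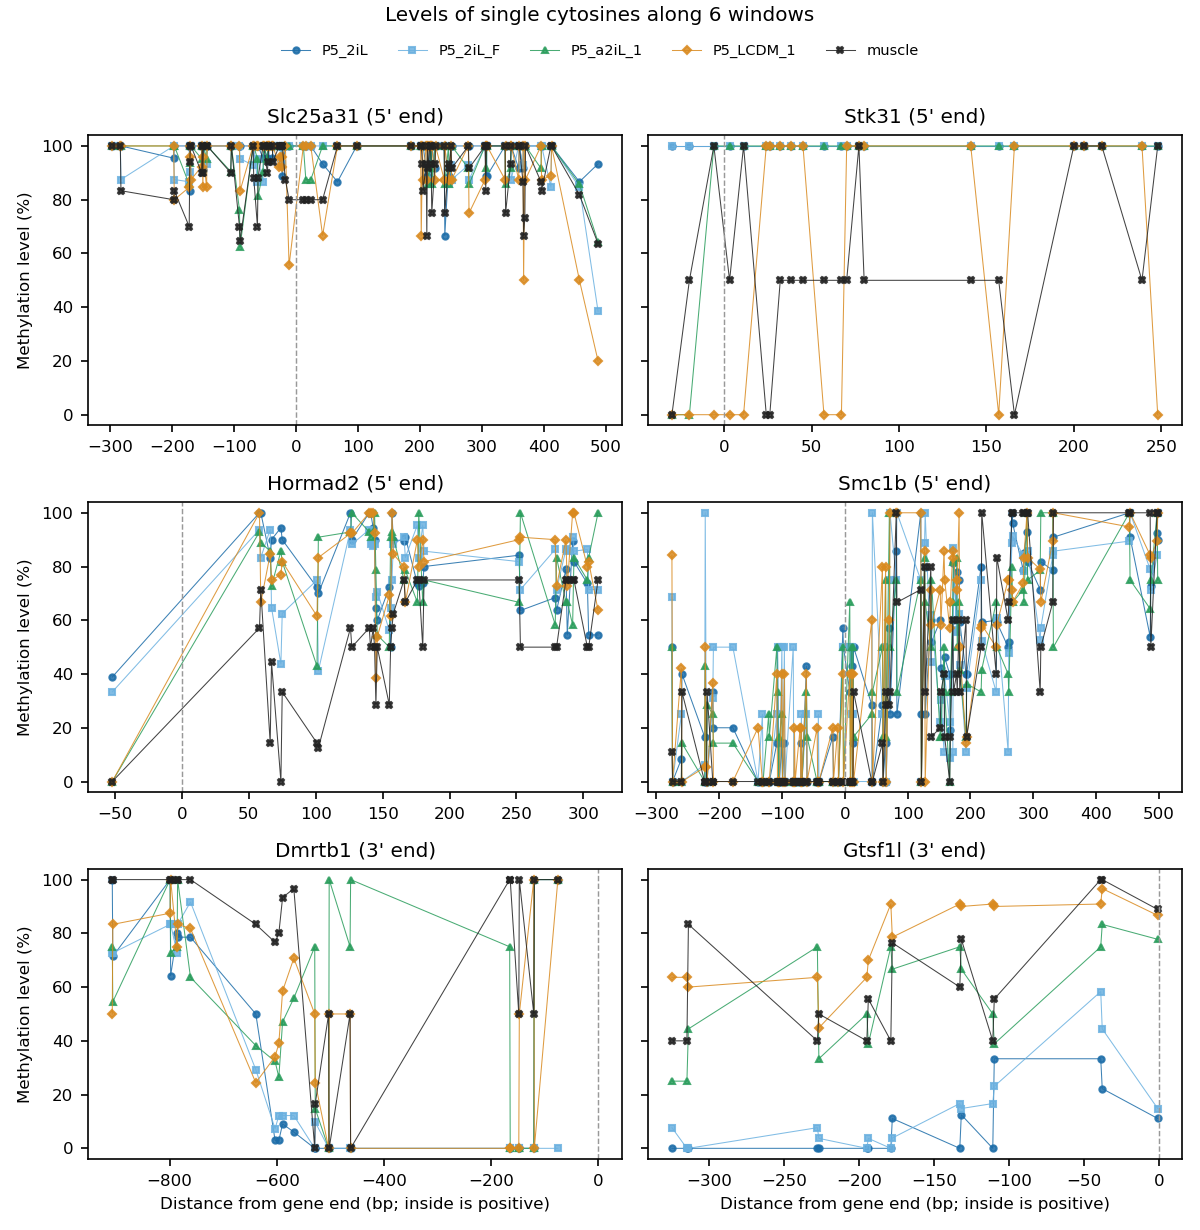
Methylation level (%) of single cytosines listed in all 5 libraries against the distance (bp) from the gene end, with positions inside the gene positive, for 6 windows and 5 libraries. Slc25a31 stays high, Stk31 takes few distinct levels and P5_2iL lies under P5_2iL_F at 100%, Hormad2 is lowest in muscle, Smc1b climbs across the gene start, and Gtsf1l is low in P5_2iL and P5_2iL_F only.

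For the comparisons with muscle, levels were taken over the cytosines listed in both libraries, 3 or more, and a difference of 25 percentage points or more was called. This is a rule of size and not a test. The 4 comparisons share the muscle library, so they are not independent of each other.

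In P5_2iL, 6 of 30 germline windows were called higher and 2 lower, where 4.77% of all gene ends were called higher and 1.19% lower. Called higher were Tdrd6 (88.7% against 31.6%, 57.2 points), Stk31 (100% against 56.5%, 43.5 points), Tdrd5 (37.2% against 9.37%, 27.9 points), Hormad2 (27.3 points), Mei1 (34.3% against 7.50%, 26.8 points) and Rnf17 (84.5% against 59.2%, 25.4 points). Called lower were the 3′ windows of Gtsf1l (-54.0 points) and Dmrtb1 (-40.1 points). Most gene ends are low and were rarely called, so the same class gives a closer background. In the intermediate class 5 of 11 were called higher and 2 lower, against 31.7% and 7.44% of all intermediate gene ends, and in the high class 1 of 18 was called higher, against 9.76%. These counts are not read as a difference from other gene ends of the same class.

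In P5_2iL_F, 8 of 30 were called higher and 2 lower, where 4.52% of all gene ends were called higher and 1.1% lower. The 8 were Tdrd6 (49.3 points), Stk31 (43.5), Mov10l1 (97.8% against 62.5%, 35.3), Piwil1 (29.1), Rnf17 (28.1), Tdrd5 (27.6), Hormad2 (26.7) and Sycp3 (96.1% against 70.6%, 25.5). Gtsf1l (-48.3 points) and Dmrtb1 (-48.2 points) were again lower. By class, 5 of 11 intermediate and 3 of 18 high windows were called higher, where 30.2% of intermediate and 9.19% of high gene ends were.

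In P5_a2iL_1, Tdrd6 (43.6 points), Stk31 (34.8) and Hormad2 (26.6) were called higher, 3 of 30, and 0 were called lower, against 3.17% and 0.852% of all gene ends. In P5_LCDM_1, Hormad2 (28.2 points) and Tdrd5 (27.1) were called higher, 2 of 31, and Dmrtb1 (-25.4) was called lower, against 3.29% and 1.32%. Of intermediate windows 2 of 11 were called higher in P5_a2iL_1 and 2 of 11 in P5_LCDM_1, where the share of intermediate gene ends was 19.5% in each. Hormad2 was thus called higher in each of the 4 comparisons, and its difference was 20 points or more on either strand taken alone.

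How far a call can be trusted differs between the genes. Stk31 had 22 of its 23 shared cytosines on 1 strand, so its strands cannot be compared, and its levels took only 1 value in P5_2iL, 1 in P5_2iL_F, 2 in P5_a2iL_1, 2 in P5_LCDM_1 and 3 in muscle (0, 50 and 100%). Tdrd6 differed from muscle by 39.5 and 70.3 points on its strands in P5_2iL, 40.1 and 55.4 in P5_2iL_F and 33.2 and 52.3 in P5_a2iL_1, so its call holds on each strand. Gtsf1l was lower by 45.8 and 59.9 points in P5_2iL on its strands. The calls of Tdrd5 rest on 9 cytosines and those of Piwil1 on 5. Mov10l1 took 3 distinct levels in muscle over its 12 cytosines in all 5 libraries. At the annotated start of Mov10l1, muscle was at 54.8% over 14 cytosines shared with P5_2iL_F but at 75.6% over 30 shared with P5_2iL. Over the cytosines listed in all 5 libraries, Tdrd5 was 18.9, 24.6 and 14.3 points above muscle in P5_2iL, P5_2iL_F and P5_LCDM_1 and Mei1 21.4 points in P5_2iL. Sycp3 was 22.4 points above it in P5_2iL_F over those cytosines, and also with 500 bp outside the gene in place of 1000, so these calls were lost. Other calls were gained over the cytosines in all 5 libraries. Mov10l1 (87.7% against 62.5%) and Tdrd9 (100% against 75.0%) were then called higher in P5_2iL, and Brdt (66.7% against 100%) lower in P5_LCDM_1. At the annotated start Tdrd5, Mei1 and Dmrtb1 were not called in any comparison with muscle. Gtsf1l had too few shared cytosines there to be compared with muscle. Its start was at 100% in both P5_2iL_F and P5_a2iL_1 over the 4 cytosines these libraries share.

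**Figure D4:**
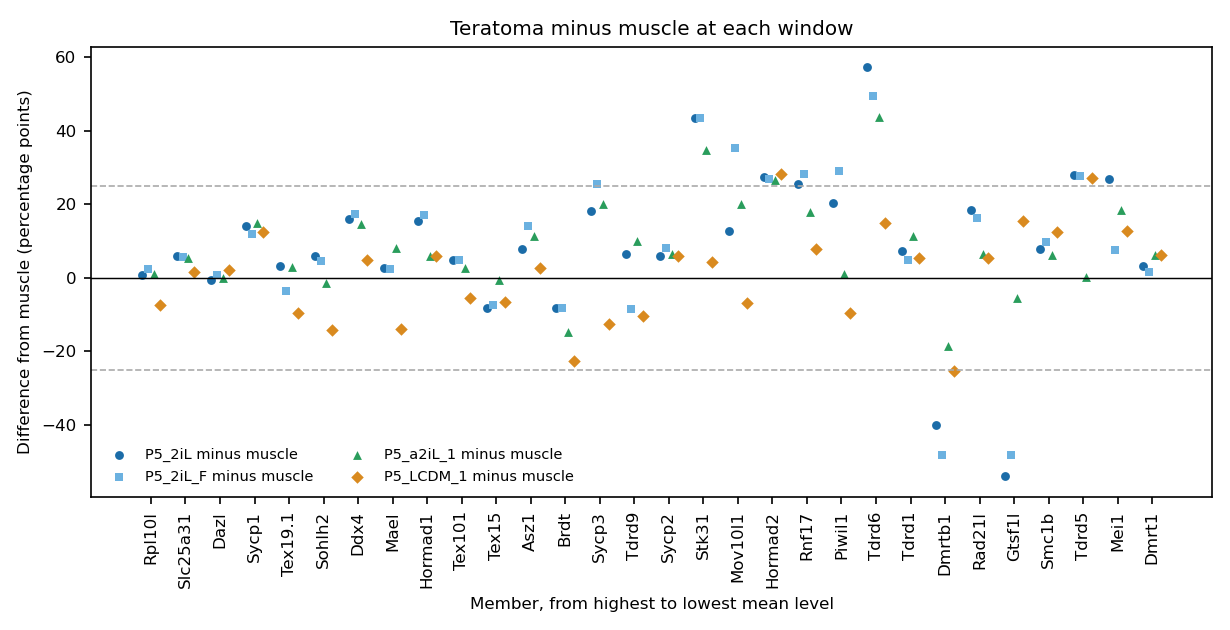
Difference from muscle (percentage points, teratoma minus muscle) of 30 germline windows in 4 teratoma libraries, ordered from the highest to the lowest mean level, with dashed lines at 25 and -25. Tdrd6 reaches 57.2 in P5_2iL, Gtsf1l is at -54.0 there, and P5_LCDM_1 lies below the other teratomas at Sycp3, Sohlh2 and Mael.

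Below the size rule, over the cytosines shared with muscle in each comparison, most high genes were above muscle in 3 of the teratomas. Most were below it in P5_LCDM_1. The median difference of high genes from muscle was 5.82 points in P5_2iL, 5.25 in P5_2iL_F, 6.18 in P5_a2iL_1 and -6.08 in P5_LCDM_1, and over all high gene ends it was 6.92, 5.75, 2.55 and -0.24 points. Over the cytosines in all 5 libraries, however, muscle was the lowest library at 10 of the 18 high genes. P5_LCDM_1 was thus above muscle at most of them there, and its side of muscle depends on the cytosines used. Intermediate germline windows had medians of 20.4, 16.2, 6.34 and 12.4 points, against 13.9, 13.1, 6.87 and 5.57 points over all intermediate gene ends. By role, the meiotic chromosome genes had medians of 16.8, 14.0, 10.7 and 9.20 points and the piRNA genes 12.6, 17.3, 11.2 and 4.35 points. Germ cell regulators stood near 0 or below, at -0.70, 0.85, -1.33 and -7.07 points. They are only 5 measured genes, 6 in P5_LCDM_1, and include Dmrtb1, which was read at its 3′ end. Over all gene ends the medians were 0.26, 0.23, 0.21 and 0.21 points. The roles differ in their share of intermediate windows, and the part of this in the role medians was not tested.

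Between teratomas, P5_2iL_F and P5_2iL did not differ by the size rule at any of 32 germline windows, where 0.367% of all gene ends were called higher in P5_2iL_F and 0.439% lower. In P5_a2iL_1 against P5_2iL, Gtsf1l was called higher (48.5 points) and Spo11 lower (-31.9 points), 1 each of 32, against 1.11% and 2.06% of all gene ends. In P5_LCDM_1 against P5_2iL, Gtsf1l was called higher (69.5 points), 1 of 32, where 1.3% of all gene ends were. The 4 called lower in P5_LCDM_1 were Tdrd6 (46.4% against 88.7%, -42.3 points), Stk31 (60.9% against 100%, -39.1), Piwil1 (49.1% against 79.3%, -30.1) and Sycp3 (61.2% against 89.2%, -28.0), where 3.24% of all gene ends were called lower. The Piwil1 call was lost with the strands of a CpG averaged (-19.97 points). By class, 2 of 11 intermediate and 2 of 18 high windows were called lower in P5_LCDM_1, where 19.6% of intermediate and 7.24% of high gene ends were, so these counts are not read as a difference from other gene ends of the same class. High genes were below P5_2iL in P5_LCDM_1 at 15 of 18, with a median of -9.58 points, against -7.04 points over all high gene ends.

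In the 3 remaining pairs, Dmrtb1 and Mov10l1 were called besides genes named above. Against P5_2iL_F, Gtsf1l (42.8 points) and Dmrtb1 (29.5) were called higher and Piwil1 (-28.1) lower in P5_a2iL_1, where 0.892% of all gene ends were called higher and 1.64% lower. In P5_LCDM_1 against P5_2iL_F, Gtsf1l (63.7 points) was called higher, and Stk31 (-39.1), Piwil1 (-38.8), Tdrd6 (-34.4), Sycp3 (-32.3) and Mov10l1 (-31.7) were called lower, where the shares were 1.2% and 3.05%. Between P5_LCDM_1 and P5_a2iL_1, only Stk31 (-30.4 points) and Tdrd6 (-28.7) were called, both lower in P5_LCDM_1, against 1.34% higher and 1.79% lower of all gene ends.

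Methylation next to the windows was also read. In the gene body beyond the window, the median level was 91.7% in P5_2iL, 87.8% in P5_2iL_F, 84.0% in P5_a2iL_1, 78.1% in P5_LCDM_1 and 77.0% in muscle at 12 high genes. At 10 intermediate genes it was 84.8%, 83.8%, 78.4% and 67.9% in the teratomas and 64.2% in muscle. The libraries thus stood in the same order in the bodies of these genes as in the shared cytosines of all autosomes. In the 9 kb outside the window the order was another one, though at intermediate genes only P5_2iL and P5_2iL_F changed places. At 6 high genes the median there was 8.63% in P5_2iL, 11.9% in P5_2iL_F, 9.91% in P5_a2iL_1, 12.4% in P5_LCDM_1 and 11.3% in muscle. In P5_2iL the flanks of Sycp3 (88.9%) and Tex19.1 (88.5%) were high and the others at 14.1% or less. The median and its order of libraries therefore describe no single gene. At 10 intermediate genes the median was 69.7%, 70.8%, 67.4% and 60.4% in the teratomas and 59.4% in muscle. Of these 10 intermediate flanks, 4, 3, 2 and 1 were 25 points or more above muscle in P5_2iL, P5_2iL_F, P5_a2iL_1 and P5_LCDM_1. The flanks of other genes were not counted, so these numbers are not set against a general share.

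Motifs of the repressor complex were searched in the promoters of the 29 genes found in the promoter table, 250 bases before to 50 after the start, on both strands. A gene was counted if any of its promoters in the table held the motif. The E-box CACGTG, bound by MGA and MAX, was found at 12 of 29 germline genes (41.4%). It was found at 2187 of all 27025 genes in that table (8.09%) and at 12.3% of those with a promoter of 10 or more CpGs. It was in 10 of 17 high genes (58.8%) and 2 of 9 intermediate ones (22.2%), and 6 of those 9 were classed by a window away from the start. The E2F type motif GGCGGGA was found at 4 of 29 (13.8%), all 4 high, against 12.7% of all genes and 25.3% of those with a promoter of 10 or more CpGs. Taking the promoter with most CpGs of each gene, the median was 20 CpGs at high genes, 18 at intermediate genes and 8 over all genes. E-boxes hold a CpG of their own, and these CpGs showed no common level. At Slc25a31 it was methylated to 100% in P5_2iL, 97.6% in P5_2iL_F, 69.3% in P5_a2iL_1, 91.7% in P5_LCDM_1 and 67.4% in muscle. Hormad1 has a pair of E-box CpGs, 1 at 73.2%, 91.7%, 62.5% and 63.5% in the teratomas and 76.2% in muscle and the other at 74.1%, 79.2%, 90.6% and 59.5%, against 40.5% in muscle. At Tdrd1 the E-box CpG was at 29.2%, 20.5%, 41.4% and 55.5% in the teratomas and 46.1% in muscle. Sycp1, Stk31 and Tdrd9 had 1 cytosine each in all 5 libraries at an E-box, and each of them took levels from 0 to 100% between libraries. A match of letters is not a binding site, and no binding was measured.

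Of the 40 other germline genes, 25 were measured in P5_2iL, P5_a2iL_1 and P5_LCDM_1 against muscle and 24 in P5_2iL_F. One gene, Stag3, a meiotic cohesin subunit, was called higher in all 4 teratomas, at 50.1% in P5_2iL, 56.0% in P5_2iL_F, 36.9% in P5_a2iL_1 and 28.8% in P5_LCDM_1, against 3.49%, 2.79%, 3.49% and 2.79% in muscle over the cytosines of each comparison. The other calls were Sohlh1 lower in P5_a2iL_1 and Hfm1 higher in P5_LCDM_1. Of 13 repressor genes 0 were called in any of the 4 teratomas, with median differences of 0.31, 0.07, 0.19 and 0.30 points. Uhrf1 came closest, 21.8 points above muscle in P5_2iL and 23.4 in P5_a2iL_1. Low windows made up 12 of these 13, and of all low gene ends only 0.0427% to 0.479% were called higher and 0.0684% to 0.222% lower. The count of 0 is therefore not read as a difference from other gene ends.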

How the data were processed

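Reduced representation bisulfite libraries of 4 teratomas and 1 muscle were used. The deposited files give a percent methylation per CpG cytosine, and no read counts. The submitters' processing notes name Trim Galore 0.6.4, Bismark and build mm10. For Bismark, the version and any coverage minimum are not given in the sources at hand. Reads of 1 molecule cannot be recognised after PCR.

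Positions count from 1: of 490393 listed cytosines in RefSeq promoter sequences, 100% then fall on a CpG, against 56.2% counted from 0. Gene ends came from a RefSeq table of GRCm38.p6, and strand and starts from a RefSeq promoter table that holds 29 of the 35 genes. Each cytosine had equal weight. Classes used cytosines in all 5 libraries, differences those in both. Calls were made over all gene ends. Full values are given for genes called against muscle or P5_2iL and for the intermediate class. Promoters were printed for called genes whose window holds the start and for the high gene with most cytosines, and Smc1b was added; those of Mov10l1 and Sycp3 had no cytosine in all 5 libraries. The genes, lists and rules were chosen with earlier results of these data known. Other sizes, cytosine minimums, windows, strand averaging and class bounds were tried. Tables were made with pandas 2.3.3 and NumPy 2.4.6 under Python 3.11.15, and figures with matplotlib 3.10.9. On simulated data over 4669 gene ends, 100% of those shifted by 40 points or more were called and 0.0448% of the unshifted ones. The simulation gave every cytosine the same number of reads. Depth is unknown in the real libraries, so these rates may not hold for them.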

Additional observations from a re-analysis of the deposited data

Results flagged for a closer look

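Some genes lay on opposite sides of muscle in different teratomas, with 10 points or more each way. Sycp3 was 18.2 points above muscle in P5_2iL, 25.5 in P5_2iL_F and 20.1 in P5_a2iL_1, and -12.5 points from it in P5_LCDM_1. Gtsf1l was at -54.0 points in P5_2iL and -48.3 in P5_2iL_F and at 15.5 in P5_LCDM_1. Tdrd9 was at 10 points in P5_a2iL_1 and -10.3 in P5_LCDM_1. Over the 7 cytosines in all 5 libraries Tdrd9 was at 82.1% in P5_a2iL_1, 73.5% in P5_LCDM_1 and 75.0% in muscle. The strands of Tdrd9 in muscle were at 83.3% and 100%, and those of Sycp3 in P5_LCDM_1 at 51.7% and 70.3%. Each of these gaps is wider than the difference of that gene between P5_LCDM_1 and muscle. The difference between the teratomas was not tested, since each is 1 library, and all share the same muscle library.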

How the results depend on the processing

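The shares of all gene ends given above hold for the main rule only, so the counts of calls below are not set against other gene ends. With a size of 15 points in place of 25, calls against muscle were 11 higher in P5_2iL, 7 higher and 1 lower in P5_a2iL_1 and 2 lower in P5_LCDM_1. Calls against P5_2iL were then 1 in P5_2iL_F, 5 in P5_a2iL_1 and 9 in P5_LCDM_1. With 40 points, 2, 2, 1 and 0 were higher in P5_2iL, P5_2iL_F, P5_a2iL_1 and P5_LCDM_1, 0 were lower in P5_LCDM_1, and 1 in P5_a2iL_1 and 2 in P5_LCDM_1 were called against P5_2iL. With 10 or more cytosines, 1 was higher in P5_LCDM_1. Over cytosines in all 5 libraries P5_LCDM_1 had 1 higher and 2 lower, and P5_a2iL_1 had 1 call against P5_2iL. With windows at the annotated start, 2 were higher in P5_2iL, 4 in P5_2iL_F and 1 in P5_LCDM_1, and 0, 0 and 0 lower in them. Against P5_2iL, 0 in P5_a2iL_1 and 2 in P5_LCDM_1 were then called, and 5 windows were intermediate. Dmrtb1 reversed there, to 4.0 points from muscle in P5_2iL and 7.65 in P5_2iL_F, since another end of the gene is read. Class bounds of 30 and 70% gave 2 low windows, and classes from muscle alone gave 9 high, 19 intermediate and 2 low. The cause of the other changes was not tested. Averaging the strands of a CpG took Rnf17 (21.2 points in P5_2iL, 23.1 in P5_2iL_F), Sycp3 (20.6 in P5_2iL_F), Mei1 (19.07 in P5_2iL) and Piwil1 (-19.97 in P5_LCDM_1 against P5_2iL) under the size rule. Over cytosines in all 5 libraries Tdrd5, Mei1 and Sycp3, and with 500 bp outside the gene Sycp3 (22.4), were not called either. Mov10l1 and Tdrd9 in P5_2iL and Brdt in P5_LCDM_1 were called against muscle only over the cytosines in all 5 libraries. No paired analysis was possible because each group holds 1 library. Depth is unknown, so levels from few reads cannot be set apart, and the strand difference leaves out the spread between animals and between library preparations.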
